A study of Mus musculus with 12 samples.

Results

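Mouse mesenchymal stem cells that lack Dicer and had been given back 1 microRNA, let-7g, were compared with cells of the same kind that have Dicer. The comparison takes the 3 libraries named KO_let-7g and the 3 named WT_siCtrl, 6 of the 12 libraries of the series. Of the 21881 genes in the table, 11801 were tested, those with a level of at least 1 FPKM in 3 or more of the 12 libraries. FPKM counts sequenced fragments relative to transcript length and to the size of the library, so it can be set side by side between genes. Per the labels, all cells were immortalized monoclonal lines of mesenchymal stem cells, described as a fibroblast type of the adult bone marrow, from C57BL/6 mice. WT_siCtrl cells were Dicer f/f, which keeps the gene intact, and received a nontargeting siRNA. KO_let-7g cells were Dicer -/- and received a synthetic let-7g duplex. Both were transfected at 20 nM with HiPerfect, and RNA was taken 48 hours later. The groups therefore differed in genotype, in the transfected duplex and, since the lines are monoclonal, in clone. These 3 cannot be told apart here, and Dicer -/- cells with the control siRNA are left out of the comparison. The sources state neither the number of lines nor whether each library had its own culture, and each p-value therefore measures only the spread between libraries, which may be technical.

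Dicer cuts precursor hairpins into mature microRNAs, which guide Argonaute proteins to partly complementary sites, mostly in the 3′ UTRs of mRNAs, and lower the level or the translation of those mRNAs. A synthetic duplex is loaded without being cut by Dicer, so it can act in cells that lack the enzyme. The let-7 family is abundant in adult differentiated cells and low in the embryo, and its targets include fetal RNA-binding proteins and growth genes. The question put to these libraries is what still differed from intact cells once let-7g was present.

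The sequences are shown to make clear what was added back and what it can pair with. The transfected microRNA and 3 further members of its family share the seed, bases 2 to 8, given in capitals (RefSeq mature sequences, build GRCm38.p6, 5′ to 3′). The let-7g sequence lies at chr9:106178846-106178867 on the plus strand. In all, 11 mature mouse microRNAs of the RefSeq table carry this seed.
let-7g-5p: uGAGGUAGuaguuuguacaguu
let-7a-5p: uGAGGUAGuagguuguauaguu
let-7i-5p: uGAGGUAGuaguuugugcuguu
miR-98-5p: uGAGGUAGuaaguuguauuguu
The matching 8mer, CTACCTCA, is the reverse complement of the seed followed by an A. It was found on the transcribed strand of 3.71% of the 3′ UTRs searched. Nr6a1 and Igf2bp1 have 3 such 8mers each. Below is the first 8mer, in capitals, of each of 5 genes whose levels open the results. It is given with 14 bases before and 4 after (GENCODE M21 transcripts, GRCm38).
Nr6a1: gttgacaaagacaaCTACCTCAatgg
Hmga2: ccgacattcaatttCTACCTCAgcat
Igf2bp1: ctgtgcgaagtaaaCTACCTCAaggt
Igf2bp2: cacacaaataaaagCTACCTCAggtg
Igf2bp3: gcatttttactcaaCTACCTCAggta

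The 6 libraries had 11208 to 11465 genes at 1 FPKM or more. The deposited table gives no read counts, but the steps between its lowest values gave a relative depth, which was 1 to 1.17 in WT_siCtrl and 1.21 to 1.64 in KO_let-7g. Correlations of log2(FPKM + 1) across the tested genes were 0.962 to 0.971 within WT_siCtrl, 0.9715 to 0.9752 within KO_let-7g and 0.890 to 0.903 between the groups. The first principal component, 67.6% of the variance, separated the groups, and on the second, 11.6%, WT_siCtrl replicate 0 lay apart from the other WT_siCtrl libraries. In what follows, every log2 difference is KO_let-7g minus WT_siCtrl in log2(FPKM + 1), with its standard error (SE), and the value by which a gene is said to be higher or to have fallen is this difference. The added 1 shrinks the differences of genes with low FPKM. A gene was called higher or lower at an adjusted p under 0.05 in limma.

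Dicer1, the gene deleted in the KO_let-7g cells, read 2.88, 2.86 and 2.37 FPKM in KO_let-7g and 8.24, 5.58 and 5.93 FPKM in WT_siCtrl. The groups did not overlap, and the log2 difference was -1.02 (SE 0.157, adjusted p = 0.00161). Reads from exons outside a deleted part would still count, and the table does not resolve exons. Nr6a1, an orphan nuclear receptor of the germ line and early embryo that the title of the series names as a let-7 target, read 3.87, 5.38 and 3.39 FPKM with let-7g and 1.16, 0.945 and 1.25 FPKM in intact cells. Every KO_let-7g library was above every WT_siCtrl library, by a log2 difference of 1.28 (SE 0.163, adjusted p = 0.000685). A two-sided exact permutation test of 3 libraries against 3 gave p = 0.1 for each of these genes, the smallest value it can give.

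More than 1 in 2 genes differed between the groups. Of the 11801 genes, 6166 (52.2%) were called, 3731 (31.6%) higher and 2435 (20.6%) lower in KO_let-7g. A change of at least 1 log2 unit was called upward for 758 genes (6.42%) and downward for 749 (6.35%), counts that were 636 and 827 after quantile scaling, 637 and 840 after upper quartile scaling and 585 and 892 after scaling by the median of ratios. For 7187 genes (60.9%) the ranges of the groups did not overlap. In 4180 genes (35.4%) the 95% interval of the log2 difference lay wholly within 1.5-fold either way, which is the measure of likeness used below, since a p that misses the threshold does not show that levels are alike. A further 1860 genes were neither called nor within 1.5-fold. With 0.1 FPKM added in place of 1, 3492 genes lay within 1.5-fold. In that setting 1049 genes were called higher and 908 lower by at least 1 log2 unit. The balance of directions depends on scaling. Of the called genes 60.5% were higher on the FPKM as deposited, 53.3% after quantile scaling, 52.3% after upper quartile scaling and 48.0% after scaling by the median of ratios, which moved the median log2 difference of all genes from 0.12 to 0.00. Small differences are to be read against that shift.

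**Figure D1:**
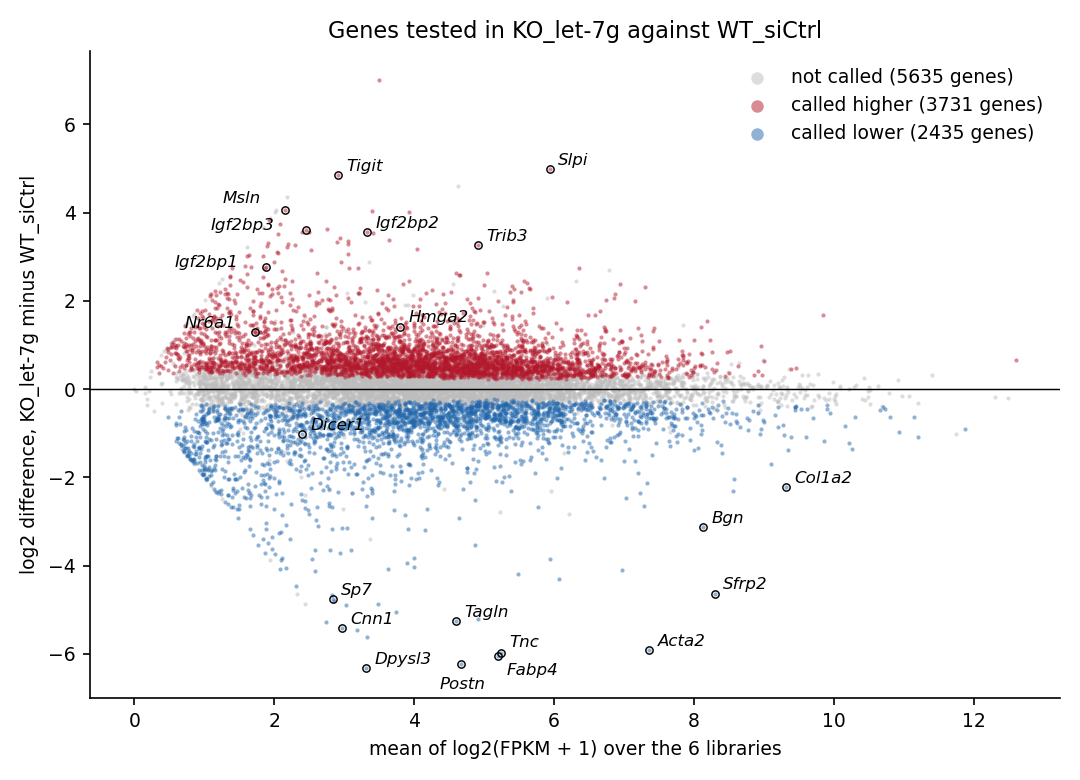
Each point is 1 of the 11801 tested genes, with the mean of log2(FPKM + 1) over the 6 libraries on the x axis and the log2 difference, KO_let-7g minus WT_siCtrl, on the y axis. The 3731 genes called higher are red, the 2435 called lower are blue, and the named genes are circled. Acta2 and Tnc, which are among the largest falls, lie at high mean levels, while others, such as Dpysl3, have lower means. The Igf2bp genes lie between 2 and 4 log2 units above 0.

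Known let-7 targets did not share 1 direction. Among 57 genes listed as let-7 targets, 47 were tested, of which 16 were called higher, 13 lower and 18 neither. Over all tested genes 31.6% were called higher and 20.6% lower, so a split in direction is not particular to these targets. The lower targets include Dicer1, the gene deleted in the KO_let-7g cells, whose fall cannot be read as an effect of let-7g. Lin28a, Lin28b and Trim71, targets known from embryonic cells, were among 9 under the filter, none of them above 1.01 FPKM in any of the 6 libraries, and 1 was not matched to the table. The median log2 difference was 0.00, against 0.12 for all genes, and its sign changed with the scaling. The 3 insulin-like growth factor 2 mRNA-binding proteins, fetal RNA-binding proteins that bind and stabilise growth transcripts, were furthest above intact cells. Igf2bp1 read 8.15, 7.98 and 9.67 FPKM in KO_let-7g and 0.375, 0.452 and 0.408 in WT_siCtrl, and the log2 difference was 2.76 (SE 0.118, adjusted p = 9.77e-06). For Igf2bp2 the values were 31.9, 39.0 and 30.2 against 1.59, 2.12 and 2.04 FPKM, and for Igf2bp3 they were 18.2, 21.0 and 15.5 against 0.400, 0.874 and 0.493 FPKM. Their log2 differences were 3.57 (SE 0.136) and 3.60 (SE 0.161), and both genes rank among the 12 largest rises of the table. All 3 were low in every intact library and well above that in every library with let-7g.

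Hmga2, a chromatin protein of embryonic and proliferating cells, read 17.95, 25.5 and 22.4 FPKM with let-7g and 9.11, 7.44 and 6.20 FPKM in intact cells, a log2 difference of 1.42 (SE 0.171, adjusted p = 0.000554). Its paralog Hmga1 had a log2 difference of 1.86 (SE 0.283), with 1 library, KO_let-7g replicate 2, at 124 FPKM and the other two at 61.9 and 55.6 FPKM. Ccnd2, a cyclin of the G1 phase, read 68.6, 68.4 and 78.2 FPKM against 13.3, 13.98 and 12.1 FPKM, a log2 difference of 2.36 (adjusted p = 9.72e-06). Its kinase partner Cdk6 was higher by 1.36 (SE 0.208) and Plagl2, a zinc finger transcription factor, by 1.04 (SE 0.120) on the log2 scale. Hmga1, Cdk6 and Plagl2, and the targets Edn1, Tgfbr1, Dtx2 and Cdc34 below, were picked from the list after their values were seen.

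Other targets were level with intact cells or below them. Rrm2, a subunit of ribonucleotide reductase, read 142, 133 and 146 FPKM with let-7g and 147, 150 and 126 FPKM in intact cells, and its log2 difference of 0.00 (SE 0.0998) had an interval within 1.5-fold. Nap1l1, a histone chaperone, lay within 1.5-fold too, at -0.15 (SE 0.177), and so did Igf1r, the receptor of insulin-like growth factor 1, at 0.01 (SE 0.112). In total 11 of the 47 tested targets were within 1.5-fold. The DNA-binding proteins Arid3a (0.31, adjusted p = 0.111) and Arid3b (-0.33, adjusted p = 0.156) did not pass the test, and their ranges in the groups overlapped. Cdc25a, a phosphatase that opens S phase, was lower in every library with let-7g, at 12.9, 13.5 and 13.4 FPKM against 28.0, 27.5 and 27.2 FPKM, a log2 difference of -1.005 (SE 0.0844, adjusted p = 0.000121). Edn1, the precursor of the vasoconstrictor endothelin, had the lowest difference of the list at -2.64 (SE 0.341). On the same scale, the TGF-beta receptor Tgfbr1 stood at -1.71, the Notch regulator Dtx2 at -1.52 and the ubiquitin-conjugating enzyme Cdc34 at -1.31.

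**Figure D2:**
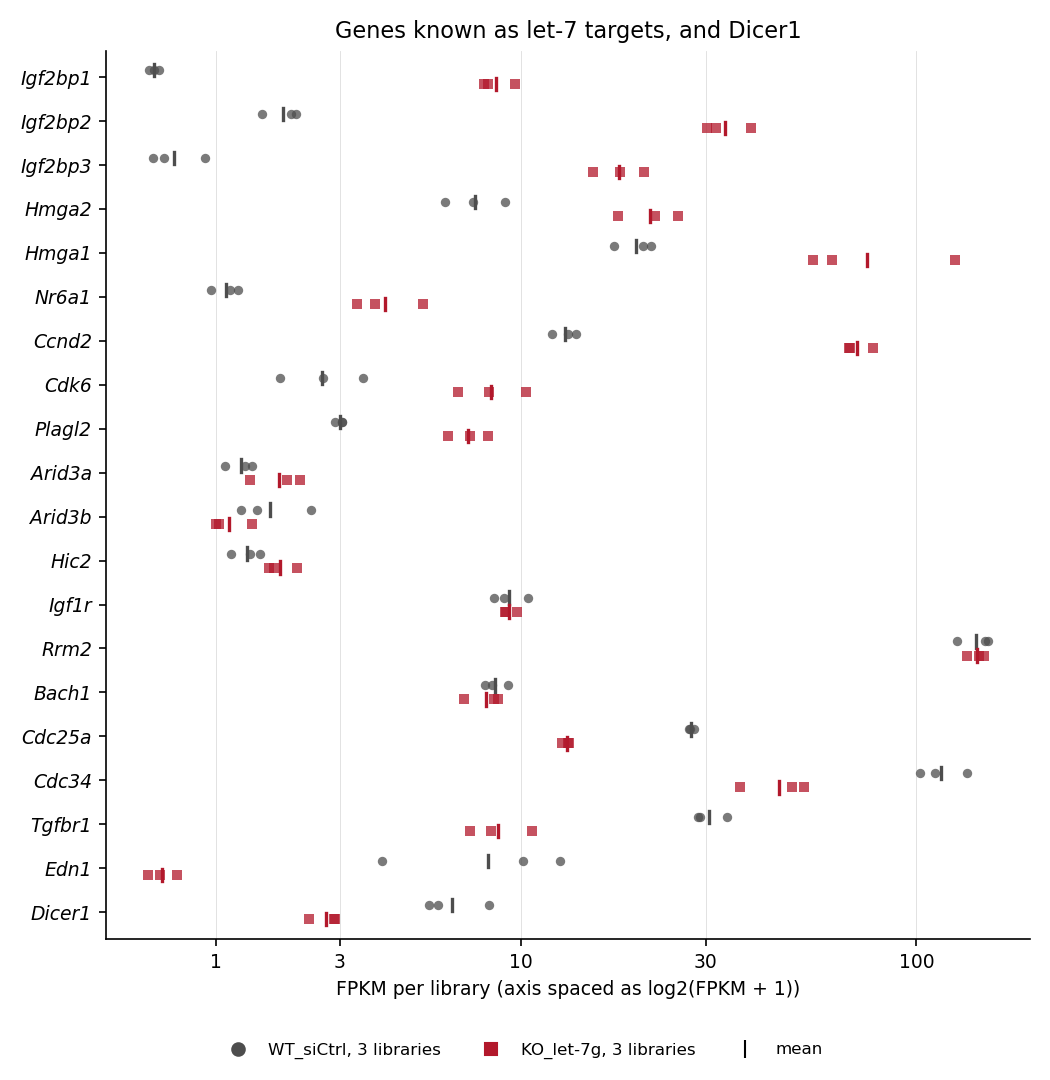
Each row is a gene, with the FPKM of the 3 WT_siCtrl libraries as grey circles, the 3 KO_let-7g libraries as red squares and the mean of log2(FPKM + 1) of each group as a bar, on an axis spaced as log2(FPKM + 1). The Igf2bp genes, Hmga2, Nr6a1 and Ccnd2 stand to the right in KO_let-7g, Rrm2 and Igf1r overlap, and Cdc25a, Tgfbr1 and Edn1 stand to the left.

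Within the target list, genes with the 8mer in their 3′ UTR were found in both directions. Of 27 tested targets with an 8mer, 9 were higher, 8 lower and 10 not called. Of 12 with only a 7-base match to the seed, 4 were higher and 3 lower. The other 8, Ccnd2, Cdk6 and Dicer1 among them, had neither match, and 3 of them were higher and 2 lower. Over all genes with an annotated 3′ UTR, 11214 in number, those with the let-7 8mer leaned downward. Among 416 such genes 103 (24.8%) were higher and 132 (31.7%) lower than in intact cells, against 32.3% higher and 21.1% lower over all 11214. Their median log2 difference was -0.03, and that of 8255 genes with no 6-base match to the seed was 0.15, so the medians differed by -0.18. That difference was -0.13 to -0.21 over all settings tried. UTR length was not matched: the median was 2636 bases with the 8mer and 891 bases without a 6-base match, and its part in the difference was not tested. With the shortest annotated UTR of each gene, 256 genes had the 8mer, 23.8% of them higher and 33.6% lower.

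On the FPKM as deposited, lower genes outnumbered higher ones for none of 20 other microRNA seeds, but they did for 1 of the 20 after quantile scaling, 2 after upper quartile scaling and 11 after scaling by the median of ratios. The 8mer genes of these seeds had median UTR lengths of 2070 to 3043 bases, and as deposited 28.1% to 40.1% of the genes were higher and 17.8% to 25.7% lower. The let-7 class had a smaller share of higher genes and a larger share of lower genes than any of the 20, as deposited and in each of the 19 other settings. After upper quartile scaling its shares were 20.9% higher and 35.1% lower, and those of the other seeds 22.4% to 34.6% and 20.9% to 34.3%. The highest shares of higher genes belonged to the 8mers of miR-125b (40.1% of 611 genes), miR-16 (39.5% of 514) and miR-17 (39.3% of 521). The lowest belonged to the 8mer of miR-22 (28.1% of 263). No microRNA with any of these 20 seeds was added back. Levels of microRNAs were not measured, and their part in these shares was not tested. These are the mature sequences of miR-125b, miR-16 and miR-17 with the seeds in capitals (RefSeq, GRCm38.p6).
miR-125b-5p: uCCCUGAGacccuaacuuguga
miR-16-5p: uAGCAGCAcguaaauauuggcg
miR-17-5p: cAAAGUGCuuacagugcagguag
These shares are descriptions, since no test over the classes was made and a gene can belong to several. By number of let-7 8mers, 24.9% of the 398 genes with 1 were higher and 32.7% lower. Of 13 genes with 2, 1 was higher and 2 were lower. Of the 5 genes with 3 or more let-7 8mers, 3 were higher and 0 lower. Over all genes with a 3′ UTR the shares were 32.3% and 21.1%. Igf2bp1 and Nr6a1, with 3 each, and Trim6, a ubiquitin ligase with 5, had log2 differences of 2.76, 1.28 and 0.44. Trim6 was low in both groups, at means of 1.02 FPKM with let-7g and 0.499 FPKM in intact cells. Mcf2l, with 7, and Fign, with 3, were not called.

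**Figure D3:**
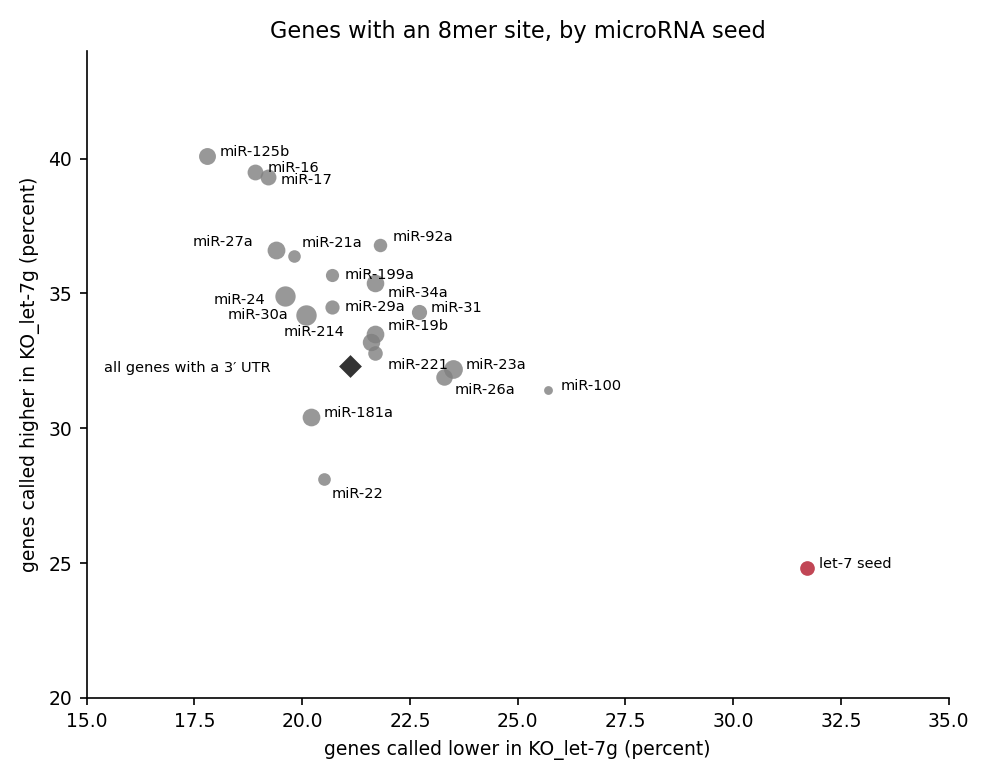
Each circle is the set of genes whose 3′ UTR holds the 8mer of 1 microRNA seed, its area growing with the number of genes, with the percent called lower on the x axis and the percent called higher on the y axis, neither axis starting at 0. The diamond is all 11214 genes with a 3′ UTR, at 21.1% and 32.3%, and the let-7 seed in red, at 31.7% and 24.8%, stands apart at the lower right.

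Genes that make and use microRNAs were called in shares close to those of all genes. The lower ones include Dicer1, the gene deleted in the KO_let-7g cells. Of 24 tested, 7 were called higher and 5 lower (3 without KO_let-7g replicate 0), with 10 within 1.5-fold, among them the exporter Xpo5 (0.10, SE 0.119) and the helicase Ddx5 (0.09, SE 0.123). Dcp2, the enzyme that removes the mRNA cap, read 25.9, 25.6 and 21.1 FPKM against 11.3, 8.61 and 7.79 FPKM, a log2 difference of 1.31 (adjusted p = 0.000465). Mov10, an Argonaute-associated helicase, was higher by 1.26 (adjusted p = 0.000656). Ddx6, a helicase of the same silencing complexes, was lower in every library, at 53.03, 54.9 and 45.3 FPKM against 100.8, 85.5 and 81.2 FPKM (log2 difference -0.79, adjusted p = 0.00141).

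By the naming rule 12 genes had the largest rises. Slpi, a secreted inhibitor of leukocyte proteases, read 306, 314 and 423 FPKM with let-7g and 8.12, 9.68 and 12.4 FPKM in intact cells, a log2 difference of 4.98 (SE 0.178, adjusted p = 5.13e-06). Tigit, an immune checkpoint receptor, read 39.1, 28.4 and 54.2 against 0.660, 0.396 and 0.171 FPKM (4.85, SE 0.241). Msln, the mesothelial surface protein mesothelin, read 17.1, 11.5 and 26.1 FPKM against 0, 0.158 and 0.114 (4.07, SE 0.261). The kininogens Kng1 and Kng2, precursors of bradykinin, were higher by 4.04 and 4.005, but these near-identical neighbours can share reads and their values are uncertain. Fetub, a secreted protease inhibitor, was higher by 3.56, Saa3, an acute-phase protein, by 3.73, and Atp6v1c2, a subunit of the proton pump, by 3.62. Rbp2, a retinol carrier, read 12.6, 10.9 and 17.2 FPKM and was listed at 0 in all 3 intact libraries. The small nucleolar RNA Snord69, at 149, 121 and 114 FPKM, was also listed at 0 in all 3. Such short RNAs lie inside host genes and their FPKM is uncertain. Igf2bp2 and Igf2bp3 complete the 12.

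The 12 largest falls included genes of the contractile, matrix and adipocyte lists, and others on none of them. Dpysl3, a cytoskeletal protein of growing axons, read 0.150, 0.114 and 0.0658 FPKM against 91.2, 95.3 and 78.8 FPKM, a log2 difference of -6.33 (SE 0.113, adjusted p = 3.17e-07). Postn, the matrix protein periostin, read 2.68, 2.80 and 0.816 FPKM against 225, 263 and 176 FPKM (-6.22, SE 0.295). Fabp4, a fatty acid carrier of adipocytes, read 2.51, 3.68 and 4.62 against 324, 337 and 245 FPKM (-6.05, SE 0.196), and Tnc, the matrix protein tenascin C, read 4.09, 4.80 and 2.71 against 259.9, 388 and 267 FPKM (-5.97, SE 0.211). The groups did not overlap in any of these genes. Il1rn, the secreted antagonist of interleukin 1, fell by 5.46 on the log2 scale, Islr, a cell surface protein of mesenchymal cells, fell by 5.27, and Fhl1, a LIM protein of muscle, fell by 5.06. Snora61, a small nucleolar RNA, was called lower at 121, 0 and 0 FPKM against 195, 210 and 146 FPKM (-5.20, SE 1.71, adjusted p = 0.0361). That call rests on 2 libraries at 0 and was lost in 8 of the 19 other settings, with adjusted p up to 0.113.

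Most contractile genes of smooth muscle and myofibroblasts were lower than in intact cells. Of 21 tested members, 14 were called lower and 1 higher, and the median log2 difference was -0.94. Acta2, smooth muscle actin, read 23.8, 22.8 and 15.1 FPKM against 1386, 1343 and 1119 FPKM (log2 difference -5.92, SE 0.179). Actg2, the enteric actin, read 0.536, 0.461 and 0.324 against 64.5, 86.1 and 59.4 FPKM (-5.61). Cnn1, calponin, and Tagln, transgelin, had log2 differences of -5.41 and -5.25, and Myl9, a regulatory light chain of myosin, read 13.8, 16.4 and 12.4 against 272, 332 and 293 FPKM (-4.31, SE 0.125). Of the other members 4 were within 1.5-fold. Tpm4, a tropomyosin of non-muscle cells, at -0.29 (SE 0.121), and Vcl, the focal adhesion protein vinculin, at -0.23 (SE 0.131), were among these, and Csrp1, a LIM protein, was higher by 0.39 (SE 0.0846). Since these are bulk libraries, fewer cells with a given program and less RNA per cell cannot be told apart.

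Most collagens were lower as well. Of 21 tested collagens 13 were lower and 4 higher, with a median log2 difference of -0.87. Col1a1 and Col1a2, the chains of type I collagen, read 163 to 201 FPKM against 647 to 901 FPKM and 274 to 311 FPKM against 1261 to 1476 FPKM, log2 differences of -2.04 (SE 0.149) and -2.22 (SE 0.109). Col3a1, the chain of type III collagen, went the other way, at 276, 273 and 175 FPKM against 54.6, 60.7 and 51.5 FPKM (2.07, SE 0.183, adjusted p = 0.000151). Col27a1 fell by 2.30 on the log2 scale, and Col4a5, a basement membrane chain, was within 1.5-fold at 0.01. The summed FPKM of the list was 1621 to 2096 with let-7g and at least 4044 in intact cells.

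More enzymes that cross-link and fold collagen were lower than higher. Of 20 tested collagen-modifying enzymes 11 were lower and 1 higher (median -0.45). Loxl1, a lysyl oxidase, read 12.6, 17.9 and 15.5 FPKM against 167, 234 and 314 FPKM (-3.84, SE 0.231), and its relatives Loxl2 and Loxl3 had log2 differences of -2.01 and -1.51. Crtap, a subunit of the prolyl 3-hydroxylase complex, fell by 1.01 on that scale. P4ha3, a catalytic subunit of prolyl 4-hydroxylase, was the 1 higher member (1.22, SE 0.157). P4hb, the subunit shared by those enzymes, and Pcolce, an enhancer of procollagen processing, were within 1.5-fold, at 411 FPKM or more in every library.

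Of 27 tested matricellular proteins and matrix glycoproteins, 15 were lower and 3 higher (median -0.62). Besides Postn and Tnc, Ltbp2, a binding protein of elastic fibres, had a log2 difference of -2.60 and Nov, a member of the CCN family, one of -2.29. Fbln2, fibulin 2, was higher by 0.57 (SE 0.121), and Nid1, nidogen of basement membranes, was within 1.5-fold. With the replicate block, 6 members were called higher in place of 3. Among 6 tested small proteoglycans and aggrecans, 4 were lower and 1 higher. Bgn, biglycan, read 102, 97.8 and 82.8 FPKM against 779, 793 and 917 FPKM (-3.13, SE 0.117), while Vcan, versican, was higher at 48.9, 57.6 and 50.8 against 17.8, 13.7 and 12.95 FPKM (1.76, SE 0.136). Ogn, osteoglycin, had a log2 difference of -1.31 and lost its call without the filter on low values (adjusted p = 0.0509).

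Matrix proteases split by gene. Of 20 tested proteases and inhibitors 4 were higher and 9 lower, the latter 5 without KO_let-7g replicate 0. Mmp3, stromelysin, read 12.5, 9.68 and 10.5 FPKM against 0.236, 0.189 and 0.150 FPKM (3.31, SE 0.127, adjusted p = 6.89e-06). Plau, the urokinase that activates plasminogen, read 118, 104 and 109 against 27.1, 19.3 and 20.1 FPKM (2.27, SE 0.138). Mmp14, the membrane-bound collagenase, and Mmp19 were lower, with log2 differences of -1.53 and -1.47. The inhibitor Timp2 was within 1.5-fold (0.18, SE 0.0958).

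**Figure D4:**
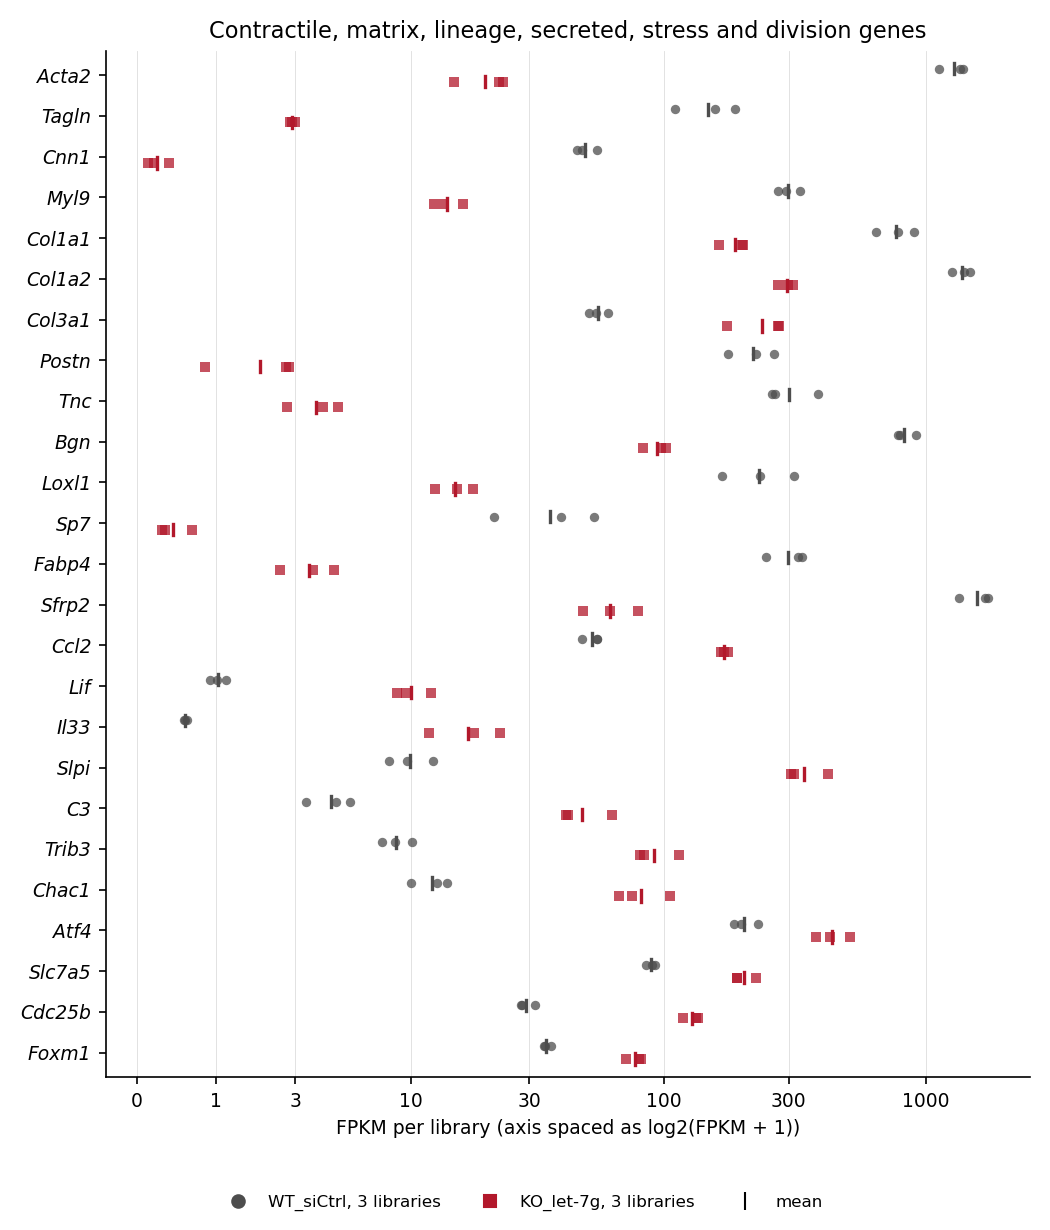
Each row is a gene, with the FPKM of the 3 WT_siCtrl libraries as grey circles, the 3 KO_let-7g libraries as red squares and the mean of log2(FPKM + 1) of each group as a bar, on an axis spaced as log2(FPKM + 1). From Acta2 to Sfrp2 the red squares lie to the left in every gene but Col3a1, and from Ccl2 to Foxm1 they lie to the right.

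Genes of the osteoblast lineage had the lowest median of the lists with 5 or more tested members. Of 15 tested, 12 were lower and 2 higher (1 after upper quartile or median of ratios scaling, and 1 without WT_siCtrl replicate 1, KO_let-7g replicate 0 or KO_let-7g replicate 1), and the median log2 difference was -2.71. Sp7, the transcription factor osterix that commits cells to bone, read 0.280, 0.618 and 0.244 FPKM against 21.9, 53.7 and 40.2 FPKM (-4.76, SE 0.302, adjusted p = 4.01e-05). The homeobox factors Dlx5 and Msx2 had log2 differences of -3.82 (SE 0.263) and -2.71 (SE 0.176), and Tnfrsf11b, osteoprotegerin, of -1.83 (SE 0.123). In Sp7 and Dlx5 WT_siCtrl replicate 0 was the lowest intact library. Atf4, a stress factor that osteoblasts also need, was higher by 1.11 and returns with its targets below. The members Ibsp, Bglap and Alpl, matrix proteins and the phosphatase of mineralising cells, picked after their values were seen, had log2 differences of -4.05, -4.80 and -4.09.

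Adipocyte and cartilage genes were found in both directions. Of 12 tested adipocyte genes 6 were lower and 2 higher (median -0.34). The early adipocyte factors Ebf1 and Zfp423 had log2 differences of -1.36 and -1.74, and Klf4, which also acts in stem cells, was higher at 35.4, 39.3 and 39.0 FPKM against 7.47, 10.2 and 9.97 FPKM (1.94, SE 0.131). The lipid genes Scd1 and Plin2 were within 1.5-fold. Only 3 of 12 chondrocyte genes were tested. Sox9, the master factor of cartilage, was higher by 1.28 (SE 0.152), Col2a1, the cartilage collagen, lower (log2 difference -2.07, SE 0.192), and Sox5 within 1.5-fold.

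Markers of mesenchymal stem cells, most of them surface proteins, were present in both groups, but not at the same levels. The list also holds the chemokine Cxcl12, called lower, and the filament protein Nes, called higher. Of 16 tested, 9 were lower and 4 higher (median -0.53), the latter 2 after scaling by the median of ratios, without WT_siCtrl replicate 1 or without KO_let-7g replicate 0. Ly6a, the antigen Sca-1, read 86.9, 94.0 and 102 FPKM against 19.7, 15.02 and 18.6 FPKM (2.35, SE 0.122). Cd44, the hyaluronan receptor, was higher by 1.07 (SE 0.138). Mcam read 3.70, 3.92 and 4.49 FPKM against 52.6, 40.2 and 40.5 FPKM (-3.17, SE 0.135), and Cd200, an immune-regulating surface protein, was lower (log2 difference -2.75, SE 0.164). Itga5, an integrin chain, and Pdgfra, a growth factor receptor of mesenchyme, were within 1.5-fold. The classical marker Thy1 was under the filter, as were Ngfr, Lepr and Cspg4, none above 0.597 FPKM in any of the 6 libraries.

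Chemokines and cytokines were mostly higher than in intact cells. Of 19 tested genes of this group 13 were higher and 2 lower, with a median log2 difference of 1.01, and no scaling changed either count. Ccl2, which attracts monocytes, read 165, 176 and 170 FPKM against 55.3, 55.2 and 48.4 FPKM (1.67, SE 0.0901, adjusted p = 2.16e-05). Lif, a cytokine of the interleukin 6 family, read 9.56, 8.74 and 12.2 against 1.01, 0.906 and 1.19 FPKM (2.44, SE 0.144). Il33, a nuclear alarmin, read 18.2, 23.0 and 11.9 FPKM against 0.515, 0.552 and 0.528 FPKM (3.56, SE 0.216). The receptor chain Il6ra was higher by 2.33 (SE 0.152). The 2 lower members were Il1rn, described above, and Lifr, the receptor of Lif, at -1.52, the latter picked because it was the only other lower one.

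Acute-phase and innate proteins, most of them secreted, changed in both directions, 6 higher and 5 lower of 12 tested. C3, the central complement protein, read 63.4, 42.0 and 42.6 FPKM against 3.39, 5.47 and 4.72 FPKM (3.18, SE 0.204), and Lbp, which binds bacterial lipopolysaccharide, was higher by 3.51 (SE 0.286). Serpina3g, an intracellular protease inhibitor, was lower (log2 difference -2.65, SE 0.228). The lower members Hp, Orm1 and Ptx3, picked after their values were seen, had log2 differences of -3.54, -2.47 and -1.8. Interferon-induced genes gave no steady count. Of 30 tested, 11 were higher and 8 lower, and over the settings 3 to 14 were higher and 5 to 10 lower. Without KO_let-7g replicate 0 the counts were 5 and 5, 5 were higher without KO_let-7g replicate 1 and 7 without WT_siCtrl replicate 0 or 1, and 5 were lower without WT_siCtrl replicate 1 or 2 or KO_let-7g replicate 2. Rsad2, an antiviral enzyme, was higher by 1.93 (SE 0.130), Irf1, an interferon-response factor, by 1.33 (SE 0.110) and Oas1a, a sensor of double-stranded RNA, by 1.84 (SE 0.192), while Irgm1, an interferon-induced GTPase, was lower (log2 difference -1.31, SE 0.129).

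**Figure D5:**
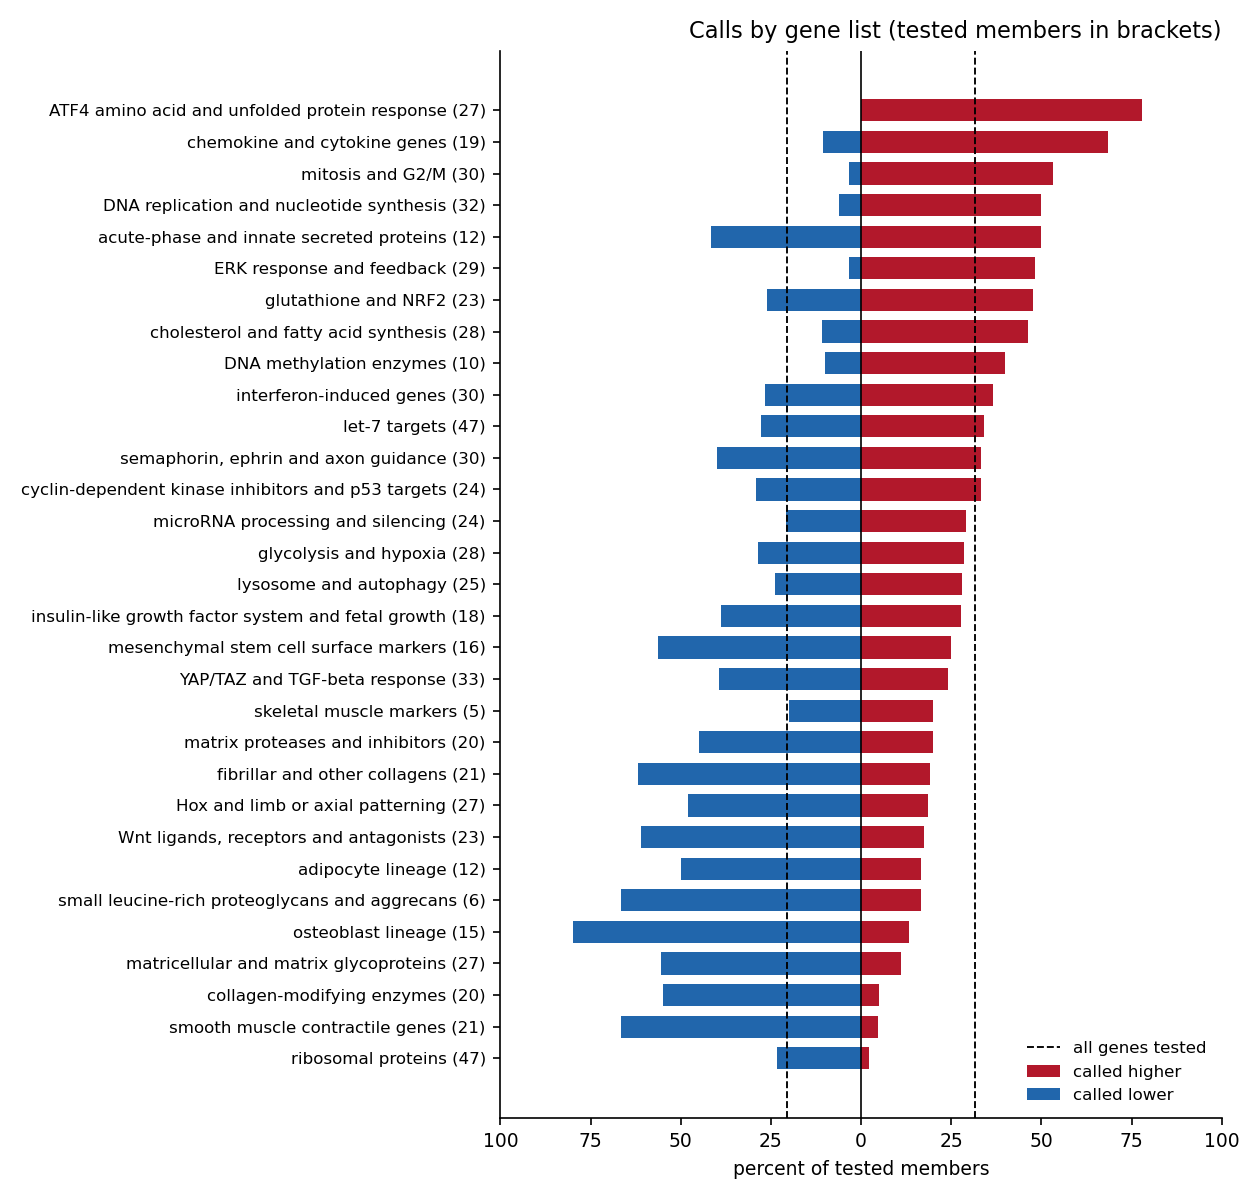
Each row is a gene list with at least 5 tested members, their number in brackets, and the bars give the percent of those members called higher (red, to the right) and lower (blue, to the left) in KO_let-7g. The dashed lines are the same shares over all tested genes, 31.6% higher and 20.6% lower. The list of ATF4 and unfolded protein response genes has the longest red bar, at 77.8%, and the osteoblast lineage the longest blue bar, at 80.0%.

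Genes of the amino acid response under ATF4 and of the unfolded protein response were higher with no member called lower. Of 27 tested, 21 were higher and 0 lower, the median log2 difference was 0.79, and the scalings left 18 to 20 higher and 0 lower. Atf4 itself, the transcription factor at the head of this response, read 382, 431 and 515 FPKM against 185, 230.0 and 197 FPKM (1.11, SE 0.140, adjusted p = 0.000677). Trib3, a pseudokinase it induces, read 83.8, 80.8 and 114 FPKM against 7.55, 10.1 and 8.55 FPKM (3.26, SE 0.161). Chac1, which degrades glutathione, was higher by 2.64 (SE 0.190), Atf3, a partner transcription factor, by 2.13 (SE 0.128) and Slc7a5, an amino acid transporter, by 1.16 (SE 0.0992). The glycyl-tRNA synthetase Gars (-0.02, SE 0.0868) and the endoplasmic reticulum chaperone Pdia4 (0.01, SE 0.0770) were within 1.5-fold.

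Of 23 tested genes of glutathione and oxidative stress 11 were higher and 6 lower (median 0.48). Srxn1, which repairs peroxiredoxins, read 79.5, 83.8 and 124 FPKM against 17.0, 21.1 and 18.01 FPKM (2.27, SE 0.179). The aldehyde dehydrogenase Aldh3a1 was higher by 2.29 (SE 0.228), and the glutathione transferases Gstm2 and Mgst2 by 1.59 and 1.37. Gstt1, another transferase, was lower (log2 difference -1.64, SE 0.236), and Gclc, which starts glutathione synthesis, was within 1.5-fold. Of 25 tested lysosome and autophagy genes 7 were higher and 6 lower, shares close to those of all genes. The lower count was 3 without KO_let-7g replicate 0 or without replicate 2. Sqstm1, the autophagy receptor p62, read 414, 481 and 624 FPKM against 150.3, 178 and 182 FPKM (1.55, SE 0.163). Gpnmb, a glycoprotein of lysosome-rich cells, was higher by 1.74 (SE 0.276), the protease Ctsk lower (log2 difference -1.51, SE 0.206) and Lamp1, a lysosome membrane protein, within 1.5-fold.

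Glycolysis and hypoxia genes were 8 higher and 8 lower of 28 tested. With the replicate block 13 were higher, and 4 were lower without WT_siCtrl replicate 0 and 5 without WT_siCtrl replicate 2, KO_let-7g replicate 1 or KO_let-7g replicate 2. Aldoc, the brain form of aldolase, read 13.5, 13.5 and 12.8 FPKM against 0.368, 0.402 and 0.641 FPKM (3.28, SE 0.118), while Aldoa, the common form, at 368 to 378 against 350 to 419 FPKM, was within 1.5-fold, as was Ldha, lactate dehydrogenase. The stress gene Ndrg1 was higher by 2.01 (SE 0.118). Slc2a3, a glucose transporter, and Pdk1, a kinase that holds back pyruvate oxidation, had log2 differences of -1.84 and -1.34. Of 28 tested genes of cholesterol and fatty acid synthesis, 13 were higher and 3 lower (median 0.23), but after scaling by the median of ratios 7 were higher and 4 lower, and 7 were higher without KO_let-7g replicate 0 and 8 without its replicate 1. Without WT_siCtrl replicate 0, 5 were lower. Insig1, a sterol sensor, was higher by 0.91 (SE 0.0846), Dhcr7 by 1.17 (SE 0.155), and Ebp, a sterol isomerase, was lower (log2 difference -0.59, SE 0.101).

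More genes of mitosis were higher than lower. Of 30 tested 16 were higher, 1 lower and 13 within 1.5-fold (median 0.37), and the scalings left 13 to 16 higher and 3 to 5 lower. Cdc25b, a phosphatase that opens mitosis, read 132, 118 and 134 FPKM against 27.9, 28.2 and 31.7 FPKM (2.10, SE 0.0955, adjusted p = 1.25e-05). The mitotic kinase Aurka read 122, 110.1 and 130 FPKM against 52.1, 54.1 and 49.3 FPKM (adjusted p = 8.84e-05). Its relative Aurkb was higher by 0.95 (SE 0.0865), and Foxm1, which drives genes of the G2 phase, by 1.12 (SE 0.0893). Ttk, a checkpoint kinase, was lower (log2 difference -0.42, SE 0.101), and the cyclin Ccna2 and the survivin gene Birc5 were within 1.5-fold.

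Of 32 tested replication genes 16 were higher, 2 lower and 18 within 1.5-fold, 4 of which were also called (median 0.27). Rfc3, a clamp loader subunit, read 135, 144 and 126 FPKM against 77.7, 81.8 and 75.7 FPKM (0.78, SE 0.0886), Rrm1 was higher by 0.74 and the helicase subunit Mcm3 by 0.50. Tk1, thymidine kinase, was lower (log2 difference -0.56, SE 0.104). Pcna, the replication clamp, was called higher at 0.33 (SE 0.0894), but its interval lay within 1.5-fold and the call was lost in 4 other settings, among them scaling by the upper quartile and the median of ratios.

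Brakes of the cycle and p53 targets were divided, 8 higher and 7 lower of 24 tested. The higher count was 5 without KO_let-7g replicate 0 or without replicate 2. Gadd45a, a stress-induced growth arrest gene, was higher by 1.69 (SE 0.159) and Sesn2, which restrains mTOR and also belongs to the ATF4 list, by 1.44 (SE 0.197). Mdm2, the ubiquitin ligase of p53, was lower (log2 difference -0.96, SE 0.118) and Ei24, a protein of the endoplasmic reticulum, was too (-0.92, SE 0.0991). The inhibitor Cdkn1b was within 1.5-fold (-0.02, SE 0.119), as was Cdkn2c.

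Genes induced by ERK signalling, and its feedback inhibitors, were 14 higher and 1 lower of 29 tested, with a median of 0.68, and the scalings gave the same counts. Ereg and Areg, ligands of the epidermal growth factor receptor, read 8.53, 7.23 and 9.52 FPKM against 1.03, 0.789 and 0.763 FPKM, and 5.68, 4.495 and 7.48 against 0.403, 0.173 and 0.218 FPKM. Their log2 differences were 2.33 (SE 0.134) and 2.43 (SE 0.177). Etv1, a transcription factor that ERK induces, was higher by 1.53 (SE 0.124), whereas the phosphatase Dusp7 was lower (log2 difference -1.82, SE 0.145), and Epha2 and Phlda1 were within 1.5-fold.

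Wnt genes were mostly lower, 14 of 23 tested against 4 higher, with a median of -0.78. The higher count was 2 under each scaling and without WT_siCtrl replicate 2, KO_let-7g replicate 0 or KO_let-7g replicate 1. The lower count was 8 when only genes of at least 5 FPKM on average were tested. Sfrp2, a secreted binder of Wnt proteins, read 61.7, 79.5 and 48.9 FPKM against 1333, 1717 and 1675 FPKM (-4.63, SE 0.188, adjusted p = 8.49e-06), and its relative Frzb was lower (log2 difference -2.23, SE 0.196). Nkd2, an inhibitor inside the cell, was lower (log2 difference -2.36, SE 0.169). Fzd6, a receptor, was higher by 1.80 (SE 0.134), and the receptor Fzd7 and the transcription factor Tcf7 were within 1.5-fold.

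Genes of TGF-beta, BMP and YAP signalling were 13 lower and 8 higher of 33 tested (median -0.21). Bmp4, a growth factor of bone, read 15.4, 19.3 and 19.1 FPKM against 71.5, 102 and 105 FPKM (-2.30, SE 0.169). Smad6, which BMP signals induce and which restrains them, was lower (log2 difference -2.84, SE 0.253), as were the receptor Tgfbr1 (-1.71, SE 0.148) and the ligand Tgfb3 (-1.34, SE 0.101). Id2, an inhibitor of differentiation factors, was higher by 1.35 (SE 0.150). The YAP paralog Wwtr1 (-0.05, SE 0.0933) and the SMAD inhibitor Ski were within 1.5-fold.

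In the insulin-like growth factor and fetal growth group, 7 of 18 tested were lower and 5 higher (median -0.35). The imprinted adaptor Grb10, which restrains growth, read 7.21, 10.5 and 6.95 FPKM against 70.8, 72.5 and 60.9 FPKM (-2.92, SE 0.159), and the imprinted factor Plagl1 was lower (log2 difference -2.16, SE 0.213). Irs1, an adaptor of the insulin receptor, and Igfbp7 had log2 differences of -0.80 and -1.38. Dio3, an imprinted enzyme that inactivates thyroid hormone, was higher by 1.30 (SE 0.169), at no more than 2.23 FPKM. Fetal growth genes such as Igf2, H19 and Dlk1 were among 12 members under the filter, none above 0.799 FPKM in any of the 6 libraries.

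More Hox and patterning genes were lower than higher. Of 27 tested, 13 were lower and 5 higher (median -0.28). The Hoxb and Hoxd genes on the list were under the filter in both groups, at no more than 0.268 FPKM. Hoxa13 and Hoxc13, which pattern the most distal limb and tail, had log2 differences of -1.93 (SE 0.238) and -2.19 (SE 0.194) and Meis2, a Hox cofactor, one of -1.56 (SE 0.117). Twist2, a factor of mesenchyme, was higher at 31.5, 40.2 and 45.4 against 8.60, 13.2 and 11.5 FPKM (1.73, SE 0.185). Hoxa4 was within 1.5-fold. Hoxc10 was called lower at -0.25 (SE 0.0910) with its interval within 1.5-fold, and lost the call in 8 other settings. Guidance cues were divided, 10 higher and 12 lower of 30 tested. Besides Dpysl3, Ephb2, a receptor of ephrins, was lower (log2 difference -3.62, SE 0.126), as were its ligand Efnb1 (-2.66, SE 0.175) and the secreted cue Slit3 (-1.76, SE 0.110), while Ntn1, netrin, was higher by 2.19 (SE 0.158) and the receptor Nrp2 within 1.5-fold.

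Genes that cells of every type use showed how far likeness went. Of 47 ribosomal proteins 29 were within 1.5-fold, 11 were lower and 1 higher. Their direction depended on scaling, since quantile scaling gave 11 higher and 7 lower and scaling by the median of ratios 1 higher and 17 lower, and 6 were lower without WT_siCtrl replicate 1 or KO_let-7g replicate 1. Rpl8 and Rps18 were within 1.5-fold, Rpsa was lower (log2 difference -1.18, SE 0.125) and Rps7 higher by 0.80 (SE 0.127), and all of these have pseudogene copies that can share reads. Among 10 tested DNA methylation enzymes 4 were higher (2 after upper quartile or median of ratios scaling), 1 lower and 5 within 1.5-fold. The de novo methyltransferases Dnmt3a and Dnmt3b were higher by 0.88 (SE 0.134) and 0.49 (SE 0.119). Dnmt1, the maintenance enzyme, was lower (log2 difference -0.40, SE 0.120) and lost its call in 5 other settings, and so did its partner Uhrf1, higher by 0.29 (SE 0.0791).

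Markers of other cell types were largely under the filter in both groups. Of 19 blood cell markers 3 were tested, all higher, and their summed FPKM with all members was 38.9 to 50.3 in KO_let-7g and 16.7 to 26.6 in WT_siCtrl. Cd68, a lysosomal protein of macrophages that fibroblasts also make, was higher by 1.501 (SE 0.182), the lipopolysaccharide receptor Cd14 by 0.99 (SE 0.155) and Cd74, the invariant chain, by 0.87 (SE 0.289), a call lost in 8 other settings. The defining leukocyte marker Ptprc was under the filter, Cd3e and Tyrobp were listed at 0 in all 6 libraries, and no untested marker of the list exceeded 0.980 FPKM. Of 12 endothelial markers Flt1, a receptor of the vascular growth factor, was higher at 8.15, 8.30 and 5.82 FPKM against 0.198, 0.255 and 0.199 FPKM (2.78, SE 0.148) and Eng, endoglin, lower (log2 difference -0.72, SE 0.132), with the other 10, Pecam1 and Cdh5 included, at no more than 0.206 FPKM. The summed endothelial markers were 38.7 to 41.4 FPKM with let-7g and 45.2 to 63.3 FPKM in intact cells. Of the epithelial list only Krt19 was tested (-1.30, SE 0.161), and the list summed to 3.10 FPKM or less in every library. Of the neural list Tubb3, a tubulin also found in dividing mesenchyme, was higher by 1.57 (SE 0.161), and of the skeletal muscle list Pax3, a factor of muscle precursors, was higher by 0.76 (SE 0.0951) and Acta1, skeletal actin, lower (log2 difference -1.12, SE 0.177). In the pluripotency and germline list Nr6a1 and Klf5 were higher, Klf5 by 1.69 (SE 0.139). Klf2, the third tested member, was not called, at means of 3.258 against 3.497 FPKM (log2 difference 0.01, SE 0.291), and the 15 untested members, Pou5f1 and Nanog included, were at no more than 0.358 FPKM. The part of admixed cells in the results above was not tested.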

How the data were processed

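mRNA was sequenced from 3 libraries of KO_let-7g and 3 of WT_siCtrl cells. The authors deposited 1 table of FPKM values, and the submitters' processing notes name TopHat 1.2.0, Cufflinks 1.0.3 and build mm9, without settings. Because FPKM is relative to the library, large changes in abundant genes move all other values. No source used here states strand-aware counting, and overlapping antisense genes cannot be told apart.

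From the deposited FPKM, log2(FPKM + 1) was fitted with limma 3.58.1 (R 4.3.3) on the 6 libraries with a variance trend, 4 residual degrees of freedom and Benjamini-Hochberg adjustment over 11801 genes. The scripts were tested on simulated data. Relative depth came from the commonest ratio of values under 0.3 FPKM between 2 libraries. Groups came from the sample titles. Deviations from group means correlated at 0.267, 0.187 and 0.148 across same-numbered libraries, all above 0.1, so the numbers were taken as pairs on this measured ground, without a label that says so, and a fit with a replicate block was run beside the reported one.

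Seed sites were searched in the longest GENCODE M21 3′ UTR (GRCm38) of 11214 genes, 10222 matched by symbol and 992 by RefSeq synonym. Of 29 microRNAs sought, 24 were matched, with 21 seeds. The members and gene lists were chosen with earlier results of these data known. The genes named were Dicer1, Nr6a1, Hmga2, Igf2bp1, Igf2bp2, Igf2bp3, Arid3a and Arid3b, the 12 largest rises and 12 largest falls among called genes without overlap and at 5 FPKM or more in the higher group, and in each list up to 4 called members of smallest adjusted p, up to 2 within 1.5-fold and the strongest called member in the opposite direction. Others are marked as picked later. Some genes that this rule names are not reported here. Alternatives were 2 pseudocounts, 3 filters, 3 scalings, a 12-library fit, the replicate block in both fits, no trend, library weights and leaving out each library.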

Additional observations from a re-analysis of the deposited data

How the results depend on the processing

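The reported fit was compared with 19 alternatives. No named gene reversed, and of 162 called named genes 8 lost the call in at least 1: Snora61, Cd74, Hoxc10, Dnmt1, Uhrf1, Timp1, Pcna and Ogn. Leaving out 1 library gave 2828 to 3548 genes higher and 1922 to 2503 lower, 729 to 817 higher and 709 to 811 lower by at least 1 log2 unit, and 3169 to 4037 within 1.5-fold. With the replicate block 4377 genes were higher and 2833 lower, and of the 6166 called genes 6128 kept their call. Beside the counts given with the results, the block moved 3 counts over 1.5 times, all of 1 member (smooth muscle higher 3, mitosis lower 3, skeletal muscle lower 2), and ended the call of no named gene. Restricting the test to a mean of 5 FPKM or more left 474 lower by at least 1 log2 unit, since fewer genes were tested. Without a filter 10663 of 19112 genes lay within 1.5-fold, since many are near 0. Counts of a list also moved over 1.5 times where genes of low FPKM were dropped or added, and with library weights. Scaling by the median of ratios gave 2788 higher and 3024 lower, quantile scaling 3153 and 2767, and upper quartile scaling 3083 and 2812. With a table of FPKM and no counts, the sampling error of low genes is unknown. The genotype, the clone and the transfected duplex differ together, which no setting can separate.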
